A study of Rattus norvegicus with 35 samples.

Results

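The livers described here were chosen by the level of 2 secreted proteins' transcripts, *Igfbp1* and *Fgf21*, among rats given the same dose. For each of 35 arrays, *Igfbp1* and *Fgf21* were turned into z scores over all arrays and averaged, and the mean score of the array's own dose group was subtracted. The 10 arrays with the highest score (called high) and the 10 with the lowest (called low) gave 20 chosen arrays of 35, and the other 15 are called middle. The levels of *Igfbp1* and *Fgf21* therefore chose the arrays, and their differences between the classes are given as a description with no test, while no other transcript was used in that choice. The rule names a contrast of feeding state, but the labels record diet and water as freely available and give no fasting time, so no feeding state is assigned to any rat.

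The arrays came from male Harlan Sprague Dawley rats, aged 7 weeks at the start, that received 1,2-bis(2,4,6-tribromophenoxy)ethane (BTBPE, a brominated flame retardant) by gavage for 5 days in corn oil at 5 ml/kg. The doses were 0 (vehicle), 0.07, 0.69, 6.88, 68 and 680 mg/kg, with 6 rats per group except 5 at 68 mg/kg, and left liver lobe was taken 1 day after the last dose. Each array is labelled as a separate sample. The vehicle group supplied 2 high and 2 low arrays, 0.07 mg/kg 1 and 1, 0.69 mg/kg 2 and 1, 6.88 mg/kg 1 and 2, 68 mg/kg 2 and 2, and 680 mg/kg 2 and 2. The lists of defining hepatocyte genes gave liver levels on every array, with albumin (*Alb*) between 14.23 and 14.44 log2 units and the nuclear receptor *Hnf4a* between 11.03 and 11.79. Array medians ran from 4.71 to 4.79 log2 units.

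*Igfbp1* encodes a hepatocyte-secreted binding protein that restrains insulin-like growth factors. Its transcription is repressed by insulin through forkhead factors of the FOXO family and raised by fasting, glucagon and glucocorticoids. *Fgf21* encodes a liver hormone that acts on fat and brain, and its transcription is raised by the fatty acid sensor PPAR-alpha, by the amino acid stress factor ATF4 and by the carbohydrate sensor ChREBP. Both genes are thus known as readouts of nutritional state, through different regulators.

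The promoters of both chosen genes and of *Chac1*, described with *Fgf21* further on, are printed to show which of 4 searched motifs lie near each start. No motif of PPAR-alpha or of glucocorticoids was searched. The sequences are the 250 bases before the start site in the RefSeq annotation of GRCr8, read 5′ to 3′ along the gene. *Igfbp1* lies at chr14:86261027-86261276 on the plus strand, *Fgf21* at chr1:105221377-105221626 on the minus strand and *Chac1* at chr3:126795881-126796130 on the plus strand. Capitals mark a match to 1 of 4 motifs on either strand.
Igfbp1: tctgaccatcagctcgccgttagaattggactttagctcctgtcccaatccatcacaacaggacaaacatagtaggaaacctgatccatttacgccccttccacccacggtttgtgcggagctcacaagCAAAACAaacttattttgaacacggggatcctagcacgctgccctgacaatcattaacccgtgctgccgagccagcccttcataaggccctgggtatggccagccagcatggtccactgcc
Fgf21: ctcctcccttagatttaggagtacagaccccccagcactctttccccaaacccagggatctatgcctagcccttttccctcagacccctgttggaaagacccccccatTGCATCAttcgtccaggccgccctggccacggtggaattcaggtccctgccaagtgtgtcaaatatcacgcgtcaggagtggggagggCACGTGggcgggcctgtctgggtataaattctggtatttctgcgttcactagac
Chac1: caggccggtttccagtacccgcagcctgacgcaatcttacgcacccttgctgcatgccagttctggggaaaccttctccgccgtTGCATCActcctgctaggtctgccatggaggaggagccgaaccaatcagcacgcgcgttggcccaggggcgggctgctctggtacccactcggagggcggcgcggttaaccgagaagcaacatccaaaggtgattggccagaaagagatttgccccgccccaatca
The motifs searched were the forkhead motif GTAAACA, the core of the insulin response sequence CAAAACA, the E-box CACGTG and the amino acid response motif TGATGCA, in windows that also held the first 50 transcribed bases. The *Igfbp1* promoter held CAAAACA 121 bases before the start. The *Fgf21* promoter held CACGTG 54 bases before the start and TGATGCA, on the opposite strand, 142 bases before it. *Chac1* held TGATGCA on the opposite strand 166 bases before its start. Of 40 promoters of genes called with a positive slope on *Fgf21*, described further on, 3 held TGATGCA, and *Chac1* was 1 of them. No other called gene of the amino acid and ATF4 list was among those 3. Of all 33469 promoters of the same length, 3.78% held GTAAACA, 6.28% CAAAACA, 6.42% CACGTG and 2.96% TGATGCA, so each match is a description of letters and not of a bound site.

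*Igfbp1* and *Fgf21* were among the most variable transcripts of these livers. *Igfbp1* ran from 6.81 to 10.93 log2 units with a median of 9.66 (SD 0.85, n = 35), a 17.4-fold range. *Fgf21* ran from 5.30 to 8.78 with a median of 6.36 (SD 0.85, n = 35), an 11.1-fold range. As deviations from dose group means, the SD of each lay above that of 99.9% of genes. Within the vehicle group, which received corn oil alone, *Igfbp1* still spanned 9.26 to 10.86 and *Fgf21* 5.43 to 7.26. The widest *Igfbp1* range within a dose was at 680 mg/kg, 6.81 to 10.15, and the widest *Fgf21* range was at 6.88 mg/kg, 5.59 to 8.78.

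As deviations from the dose group mean, *Igfbp1* in the high arrays had a lowest value of -0.55, a median of 0.58 and a highest value of 1.05. In the low arrays the same 3 values were -2.41, -0.39 and 0.29. *Fgf21* ran from -0.44 through a median of 0.48 to 1.78 in the high arrays and from -1.40 through -0.84 to -0.02 in the low arrays. The classes overlapped for both genes, although both had chosen them. The last array inside the high class scored 0.31 (0.07 mg/kg, replicate 4) and the first outside it 0.30 (6.88 mg/kg, replicate 2). At the other end the first array inside the low class scored -0.41 (68 mg/kg, replicate 1) and the nearest outside it -0.24 (0.69 mg/kg, replicate 3).

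No correlation between the 2 chosen genes was detected from rat to rat. Over all 35 arrays, without regard to class, the deviations of *Igfbp1* and *Fgf21* had a Pearson r of -0.156 (two-sided permutation p = 0.372) and a Spearman correlation of -0.13 (p = 0.47). The permutation p of r over all 35 arrays had a Benjamini-Hochberg value of 0.496 over 4 relations. The other relations were those of the actin control's 3′ minus 5′ signal with the score, *Igfbp1* and *Fgf21*. Without the 2 arrays farthest from the median of *Igfbp1*, r was -0.06 (permutation p = 0.755). In 20 of 35 arrays the genes lay on opposite sides of their dose group means. Of the 10 high arrays 5 had both genes above the group mean, and of the 10 low arrays 7 had both below. The array farthest to opposite sides was the 68 mg/kg array of replicate 2, with *Igfbp1* at -1.53 and *Fgf21* at 1.96. The slope of *Fgf21* on *Igfbp1* was positive in 2 of 6 dose groups and ran from -0.82 at 68 mg/kg to 0.81 at 0.69 mg/kg.

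**Figure D1:**
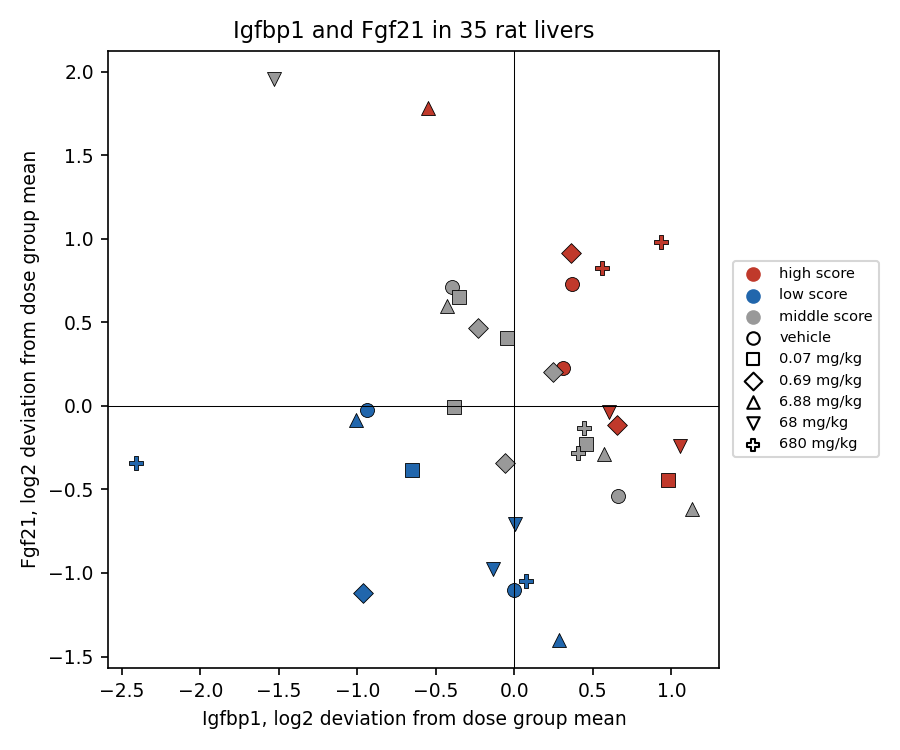
Each point is 1 liver array, with the log2 deviation of Igfbp1 from its dose group mean on the horizontal axis and that of Fgf21 on the vertical axis, coloured by score class and shaped by dose. The score placed 5 of 10 high arrays in the upper right and 7 of 10 low arrays in the lower left, and 20 of all 35 arrays lie in the upper left or lower right.

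The high and low arrays were then compared across the other 31040 probe sets with limma, with dose group in the model. No transcript passed the test. limma called 0 probe sets higher (0%) and 0 lower (0%) at a Benjamini-Hochberg adjusted p under 0.05, and the smallest adjusted p was 0.298. At an unadjusted p under 0.05 there were 1493 probe sets (4.81%), beside 1552 that would fall there if every p were uniform. The unmoderated test of the same model also called 0. Across probe sets the median half-width of the 95% interval of the difference was 0.13 log2 units. Intervals of the genes named below were narrower or wider than this.

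The gene with the smallest p was *Gdf10*, a growth factor of the transforming growth factor family, at a dim level of 3.20 to 3.52 in the low arrays and 3.47 to 3.99 in the high arrays. Its high minus low difference was 0.31 ± 0.06 (SE; limma, Benjamini-Hochberg adjusted p = 0.298). *Tgif1*, a repressor of transforming growth factor signalling, ran from 7.15 through a median of 7.45 to 7.66 in the low arrays and from 7.45 through 7.80 to 7.90 in the high arrays. The ranges of *Tgif1* overlapped, and as deviations 8 of 10 high arrays lay above every low array. Its difference was 0.32 ± 0.07 (limma, Benjamini-Hochberg adjusted p = 0.632).

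*Igfbp2*, a second insulin-like growth factor binding protein of the liver, had the largest difference of the 5 higher genes with the smallest p. It ran from 6.54 through 7.05 to 7.96 log2 units in the low arrays and from 7.06 through 7.60 to 8.19 in the high arrays. As deviations, all 10 high arrays lay above the median of the low arrays, but 3 of 10 lay above every low array. The fitted difference was 0.57 ± 0.14, or 1.48-fold (limma, Benjamini-Hochberg adjusted p = 0.851), so it did not pass. *Elovl2*, which lengthens polyunsaturated fatty acids, had a difference of 0.27 ± 0.07 and the dim cartilage gene *Cnmd* one of 0.22 ± 0.06, neither called.

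On the lower side, *Aldh1l1*, a folate enzyme abundant in hepatocytes, had a level of 10.95 to 11.41 in the low arrays and 10.80 to 11.11 in the high arrays. No high array was above its own dose group mean for *Aldh1l1*, against 9 of 10 low arrays, and the difference was -0.26 ± 0.06 (limma, Benjamini-Hochberg adjusted p = 0.632). The alcohol dehydrogenase *Adh7* had a difference of -0.49 ± 0.13, the membrane protein *Tspan33* one of -0.27 ± 0.07, and the dim genes *Ephb6* and *Ercc6l* -0.28 ± 0.06 and -0.24 ± 0.06. None of these was called.

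Genes of fasting and of feeding gave no joint direction. Of 25 measured genes of the fasting and gluconeogenesis list, 16 had a positive and 9 a negative high minus low difference, with a median of 0.02 and 0 called. Over all 14215 tested genes 6945 were positive, with a median of -0.0016 and 0 called. *Pck1*, the rate-limiting enzyme of gluconeogenesis, had a median deviation of 0.02 in the high arrays and -0.06 in the low arrays, and its classes overlapped throughout. *Pdk4*, which spares glucose by blocking pyruvate oxidation, had a difference of 0.04 ± 0.19, and *Irs2*, the insulin receptor substrate known to rise on fasting, 0.02 ± 0.20. The transcriptional coactivator *Ppargc1a* had 0.28 ± 0.11 and the aminotransferase *Gpt* -0.38 ± 0.13, so members of this list lay on both sides.

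The list of fatty acid synthesis and insulin-induced genes had 16 of 23 positive, with a median of 0.03. The fatty acid desaturase *Fads2* had a difference of 0.24 ± 0.08, *Fasn*, the fatty acid synthase, -0.07 ± 0.15 and *Acly*, which supplies its substrate, -0.02 ± 0.16. For PPAR-alpha targets and fatty acid oxidation 20 of 33 were positive, with a median of 0.02. Its members with the smallest p were *Cpt1a*, which admits fatty acids to mitochondria, at 0.22 ± 0.08, and *Ppara* itself at 0.31 ± 0.12.

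The amino acid and ATF4 response list leaned furthest to the positive side of the metabolic lists. Of its 30 genes 26 were positive, with a median of 0.12, and 10 had an unadjusted p under 0.05 with 0 called. Over all tested genes, 318 of 14215 were positive at that unadjusted level. *Ddit4*, an inhibitor of the growth kinase mTORC1, had a difference of 0.74 ± 0.24 (1.66-fold) and ran from -0.91 to 0.35 in the low arrays and from -0.37 to 1.96 in the high arrays. *Asns*, asparagine synthetase, had 0.54 ± 0.22, *Psat1* and *Phgdh*, enzymes of serine synthesis, 0.45 ± 0.20 and 0.42 ± 0.17, and *Aldh18a1*, of proline synthesis, 0.39 ± 0.12. When the arrays were ranked by *Igfbp1* alone, the sign of *Ddit4* turned to -0.45 and that of *Aldh18a1* to -0.09. When they were ranked by *Fgf21* alone, *Ddit4* was 1.21, and limma called 19 probe sets higher (0.0612%) and 9 lower (0.029%) at a Benjamini-Hochberg adjusted p under 0.05.

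Urea cycle and amino acid breakdown lay on the other side, with 23 of 24 genes negative, a median of -0.10 and 5 at an unadjusted p under 0.05. Over all 14215 tested genes 7270 were negative, and 352 were negative at that unadjusted level. *Ass1*, argininosuccinate synthetase, had -0.14 ± 0.04 and *Gls2*, liver glutaminase, -0.14 ± 0.04. Cholesterol synthesis and uptake had 18 of 19 negative, with a median of -0.14, among them the reductase *Dhcr7* at -0.25 ± 0.12. Bile acid synthesis and transport had 15 of 19 negative, with a median of -0.03. The largest of its 4 positive members was *Nr0b2*, the nuclear receptor SHP that represses bile acid synthesis, at 0.73 ± 0.23 (1.66-fold). Genes of a list share regulators and arrays, so their signs are not independent, and 0 of them passed the test.

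**Figure D2:**
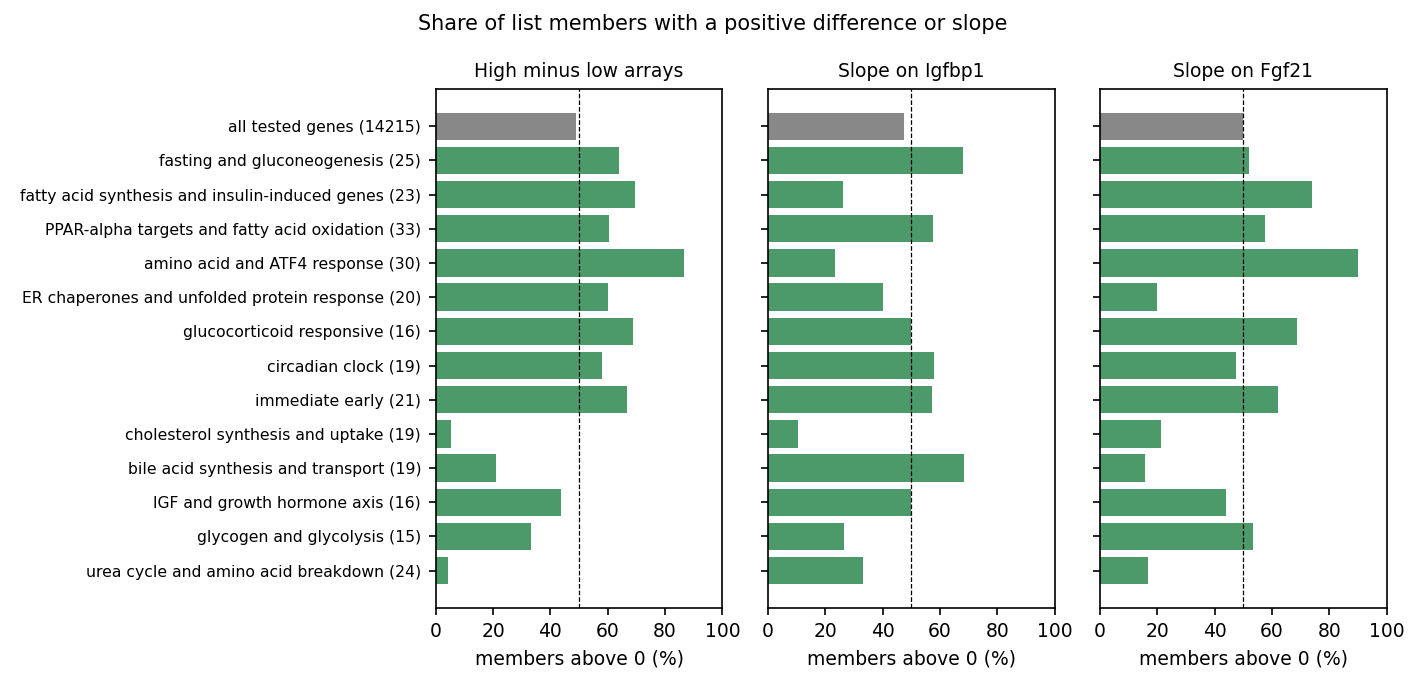
Bars give the percent of measured members of each gene list whose value was above 0, for the high minus low difference and for the slopes on Igfbp1 and on Fgf21, with the number of genes in parentheses and all tested genes in grey. The amino acid and ATF4 list lies at 86.7% for the difference, 23.3% on Igfbp1 and 90% on Fgf21, beside 48.9%, 47.5% and 50% of all genes.

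The list of the insulin-like growth factor and growth hormone axis, which holds *Igfbp2*, had 7 of 16 positive. *Igfals*, the acid-labile subunit that carries the growth factors in blood, had -0.16 ± 0.10. Receptors and co-receptors of the FGF family had 2 of 5 positive, with *Fgfr4*, the main hepatocyte receptor, at 0.06 ± 0.05. Glucocorticoid-responsive genes were mixed, 11 of 16 positive with 0 at an unadjusted p under 0.05 on that side and 3 on the other, of which *Tsc22d3* had -0.24 ± 0.08.

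Levels of other cell types and of RNA quality overlapped between the classes. Hepatocyte genes had a mean level of 12.17 to 12.29 in the high and 12.19 to 12.33 in the low arrays. Pericentral hepatocyte genes had 2 of 13 positive differences, at mean levels of 8.60 to 8.83 against 8.70 to 8.90. Periportal hepatocyte genes, which include *Ass1* and *Gls2*, had 5 of 15, at 9.95 to 10.20 against 9.89 to 10.21. Stellate cell and fibroblast genes had 16 of 21 positive differences, with a mean level of 6.85 to 7.38 in the high and 6.85 to 7.40 in the low arrays. Their smooth muscle gene *Tagln* had a difference of 0.73 ± 0.23. On the adipose list 2 of 9 were positive, at mean levels of 5.31 to 5.78 against 5.33 to 5.48. Its fatty acid carrier *Fabp4*, at a dim 3.22 to 5.92 over all arrays, had a difference of 0.83 ± 0.25. Blood genes had 6 of 11 positive, neutrophil genes 2 of 8 and Kupffer cell genes 6 of 18. The 3′ minus 5′ signal of the actin control had a median of 1.11 in the high and 1.17 in the low arrays. Over all 35 arrays the deviation of this actin signal and the score had a Pearson r of -0.215 (two-sided permutation p = 0.214). With the actin signal as a covariate, the high against low comparison also called 0 probe sets. In bulk liver, fewer cells of a type and less RNA per cell cannot be told apart. The part of cell type levels in the differences was not tested.

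**Figure D3:**
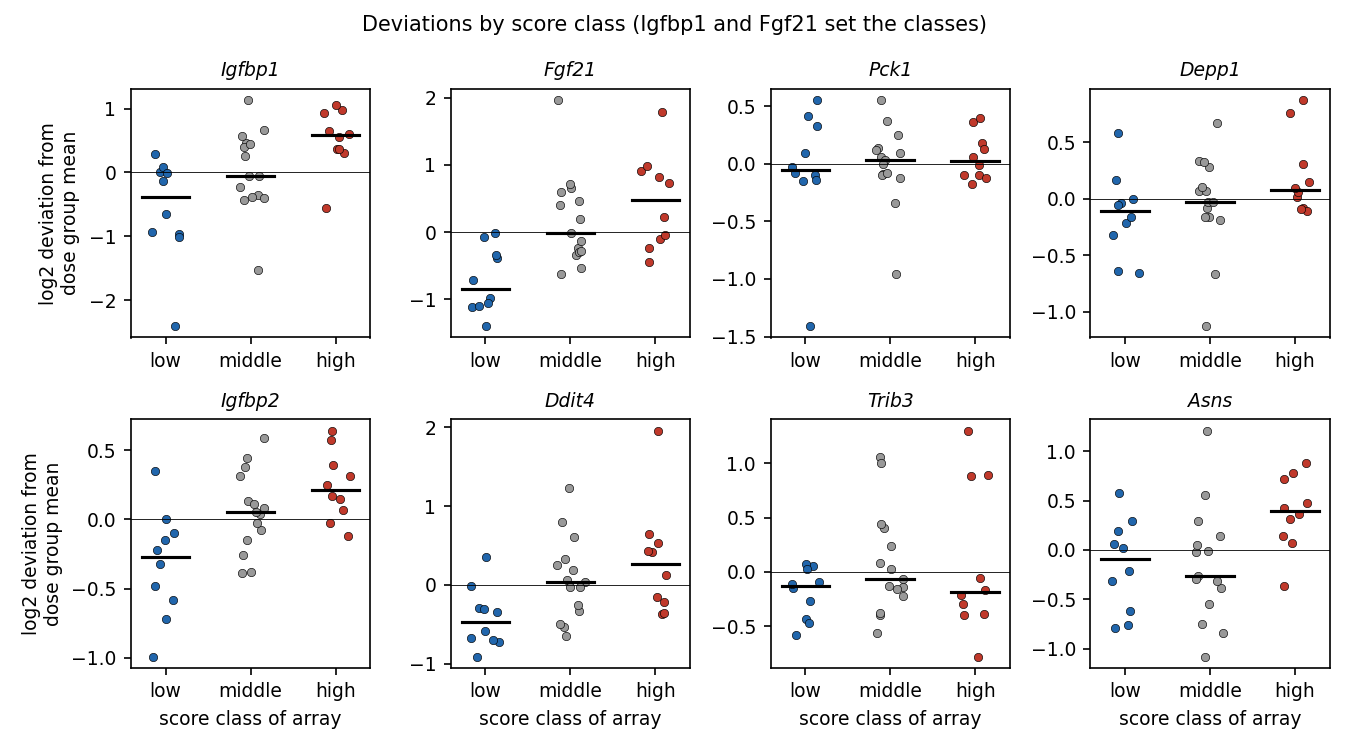
Points are arrays in the low, middle and high class, the vertical axis is the log2 deviation from the dose group mean, and bars mark class medians. Igfbp1 (medians -0.39, -0.05 and 0.58) and Fgf21 (-0.84, -0.01 and 0.48) are shifted because they chose the classes, with some overlap, Pck1 (-0.06, 0.03 and 0.02) and Trib3 (-0.13, -0.07 and -0.19) overlap throughout, and Igfbp2 (-0.27, 0.05 and 0.21) and Ddit4 (-0.47, 0.04 and 0.27) are shifted with overlap.

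The 15 middle arrays, which the classes did not use, span scores of only -0.24 to 0.30, so a count of 0 in them says little. A slope on the score within them had 0 probe sets called (0%) in either direction by limma with Benjamini-Hochberg adjustment, a smallest adjusted p of 0.745 and 953 at an unadjusted p under 0.05 (3.07%). The slope on the score was also compared between vehicle rats and rats given BTBPE. That difference was called at 0 probe sets (0%), with a smallest limma Benjamini-Hochberg adjusted p of 0.878 and 1094 at an unadjusted p under 0.05 (3.52%). For *Igfbp2* the difference of slopes was 0.18 and for *Tgif1* 0.04, both with an adjusted p of 1.

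Each gene's own log2 level was also used alone as the predictor over all 35 arrays, with dose group in the model. These fits were added after the data had been seen. A slope is the change of a transcript in log2 units per log2 unit of *Igfbp1* or *Fgf21*, and because both values come from the same array it describes joint variation between livers.

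With *Igfbp1* rose a small set led by *Pck1*. limma called 6 probe sets with a positive slope (0.0193%) and 11 with a negative one (0.0354%), and 2682 had an unadjusted p under 0.05 (8.64%). The positive probe sets belonged to 5 genes. *Pck1* had a slope of 0.35 ± 0.06 (SE; limma, Benjamini-Hochberg adjusted p = 0.0239) and was positive in 5 of 6 dose groups, from -0.15 at 0.69 mg/kg to 0.52. *Depp1*, a FOXO-induced gene of autophagy, had 0.37 ± 0.07 (adjusted p = 0.0239), positive in 6 of 6 dose groups. *Efna1*, a ligand of Eph receptors, had 0.25 ± 0.05 and 0.27 ± 0.05 at its 2 probe sets. *Grb7*, an adaptor of growth factor receptors, had 0.15 ± 0.03 and *Tgif1* 0.17 ± 0.03, both positive in 6 of 6 dose groups.

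In the 10 arrays with the lowest *Igfbp1* deviation, *Pck1* deviated by -1.41 to 0.09 with a median of -0.11. In the 10 with the highest it deviated by -0.12 to 0.40 with a median of 0.09, so the groups overlapped and 2 arrays lay far below the rest. These were the arrays of 680 mg/kg replicate 2 and 68 mg/kg replicate 2, with *Pck1* at -1.41 and -0.96 and *Igfbp1* at -2.41 and -1.53. Without the 68 mg/kg array of replicate 2, or without that of replicate 5, 0 probe sets were called in either direction. Without the 680 mg/kg array of replicate 2 only *Depp1* was called, and the *Pck1* slope, lowest at 0.22 over all single omissions, was not called without any of these 3 arrays. Without 680 mg/kg replicate 1 the counts were 22 and 113, without 0.07 mg/kg replicate 4 they were 11 and 48, and without 0.69 mg/kg replicate 4 they were 14 and 42. Higher counts also came without 6.88 mg/kg replicate 5 (8 and 27) or replicate 6 (11 and 13), 680 mg/kg replicate 5 (10 and 20) and 0.07 mg/kg replicate 2 (9 and 18). Lower ones came without 6.88 mg/kg replicate 3 (5 and 6) or replicate 4 (6 and 6), 680 mg/kg replicate 4 (4 and 4) or replicate 6 (6 and 5) and vehicle replicate 5 (5 and 5).

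Among genes at their brightest probe set, 8 of 14215 had a called negative slope on *Igfbp1* (0.0563%). *Ppp1r10*, a nuclear targeting subunit of protein phosphatase 1, had -0.23 ± 0.04 (limma, Benjamini-Hochberg adjusted p = 0.0239). *Pcgf3*, a polycomb component, had -0.14 ± 0.03, *Mtf1*, the metal-responsive transcription factor, -0.15 ± 0.03 at a probe set that is not its brightest, and *Zfp37*, a zinc finger protein, -0.34 ± 0.07. *Fam76a*, *Ranbp6*, *Mettl6*, *Pptc7* and *Noa1* were also called, at slopes between -0.10 and -0.23.

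On the fasting list 17 of 25 genes had a positive slope on *Igfbp1*, with a median of 0.02, and 1, *Pck1*, was called. Over all 14215 tested genes 6746 had a positive slope and 5 were called on that side (0.0352%). *Klf15*, a glucocorticoid-induced driver of gluconeogenesis, had 0.19 with a limma Benjamini-Hochberg adjusted p of 0.0731, which missed the threshold. *Nr0b2* had 0.49 ± 0.10 (adjusted p = 0.0529) and missed it narrowly. Of the fatty acid synthesis and insulin-induced genes 6 of 23 had a positive slope, with a median of -0.02, and of the cholesterol genes 2 of 19, with 0 called in both lists.

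A wider set of transcripts followed *Fgf21*. limma called 59 probe sets with a positive slope (0.19%) and 18 with a negative one (0.058%), with 2843 at an unadjusted p under 0.05 (9.16%). The closest was *Ddit4*, with a slope of 0.68 ± 0.07 (limma, Benjamini-Hochberg adjusted p = 1.91e-07), positive in 6 of 6 dose groups between 0.26 and 0.84. In the 10 arrays lowest in *Fgf21* alone, *Ddit4* ran from 5.86 through 6.40 to 6.95 log2 units, and in the 10 highest from 6.93 through 7.45 to 8.98, with a narrow overlap. It was called in each of the 35 fits that left out 1 array, and also in the 20 chosen arrays alone (0.69) and the 15 middle arrays alone (0.88).

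The second was *Slc38a2*, the amino acid transporter SNAT2, with a slope of 0.37 ± 0.04 (limma, Benjamini-Hochberg adjusted p = 1.19e-06) and levels of 7.34 to 7.72 in the 10 arrays lowest and 7.61 to 8.67 in the 10 highest in *Fgf21*. *Chac1*, which degrades glutathione and whose promoter is printed above, had a slope of 0.69 ± 0.10 and was positive in 5 of 6 dose groups. *Trib3*, a pseudokinase induced by amino acid shortage, had 0.44 ± 0.08 at its brightest probe set and 0.71 and 0.60 at 2 others. The transcription factors *Atf4* and *Atf3* had 0.20 ± 0.04 and 0.31 ± 0.07.

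These 6 genes were the called members of the 30-gene amino acid and ATF4 list, beside 42 of 14215 genes called on the positive side (0.295%). Of the list 27 of 30 had a positive slope with a median of 0.11, and 18 had an unadjusted p under 0.05. Over all tested genes 7111 of 14215 had a positive slope on *Fgf21*, and 827 had a positive one at that unadjusted level. *Asns* had 0.29 ± 0.11 and *Psat1* 0.24 ± 0.10, neither called. The same list had 7 of 30 positive on *Igfbp1*, with a median of -0.03 and 0 called. Chaperones of the unfolded protein response had 4 of 20 positive on *Fgf21* and 0 called.

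Of the glucocorticoid-responsive list 11 of 16 had a positive slope on *Fgf21* and 2 were called, and of the circadian clock list 9 of 19 and 1. Of the immediate early list it was 13 of 21 and 1, and of the fatty acid synthesis and insulin-induced list 17 of 23 and 0. Over all tested genes 7111 of 14215 were positive and 42 were called on that side (0.295%). The genes that follow were picked among those called. *G0s2*, an inhibitor of fat breakdown, had 0.42 ± 0.07 and *Angptl8*, a feeding-induced regulator of plasma triglycerides, 0.39 ± 0.07, both positive in 6 of 6 dose groups. *Sgk1*, a glucocorticoid-induced kinase, had 0.68 ± 0.13, the clock repressor *Bhlhe40* 0.66 ± 0.12 and the Krüppel-like factors *Klf10* and *Klf9* 0.36 ± 0.06 and 0.24 ± 0.05. *Slc7a1*, a carrier of basic amino acids, had 0.27 ± 0.05. The ubiquitin ligase *Marchf7* had 0.23 ± 0.03 at its bright probe set and -0.01 at a dim one.

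Among genes at their brightest probe set, 11 of 14215 had a called negative slope on *Fgf21* (0.0774%). *Proser2* had -0.33 ± 0.05, the lysosomal galactosidase *Gla* -0.11 ± 0.02 and *Ethe1*, a mitochondrial sulfur dioxygenase, -0.20 ± 0.04. *Cyp7a1*, the rate-limiting enzyme of bile acid synthesis, had -0.52 with a limma Benjamini-Hochberg adjusted p of 0.0697 and was not called. Its list had 3 of 19 positive slopes, 7 with an unadjusted p under 0.05 on the negative side and 0 called. Over all tested genes 618 of 14215 were negative at that unadjusted level. Urea cycle genes had 4 of 24 positive, with a median of -0.04 and 0 called. Periportal hepatocyte genes had 1 of 15 positive and pericentral ones 3 of 13, with 0 called in both lists.

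The count on *Fgf21* depended on single livers. Without the 68 mg/kg array of replicate 2 it was 13 positive and 4 negative, and *Atf4*, *Trib3*, *Sgk1* and *Bhlhe40* were not called. Without the 680 mg/kg array of replicate 2 it was 115 and 34, without 6.88 mg/kg replicate 4 it was 32 and 16, without 680 mg/kg replicate 5 it was 37 and 7, and without vehicle replicate 6 it was 91 and 26. *Ddit4*, *Slc38a2*, *Marchf7*, *Chac1*, *Proser2*, *G0s2*, *Fbxo30*, *Nedd9*, *Angptl8* and *Klf10* were called whichever of the 35 arrays was left out, while *Atf3* was called in 12 of 35 such fits.

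**Figure D4:**
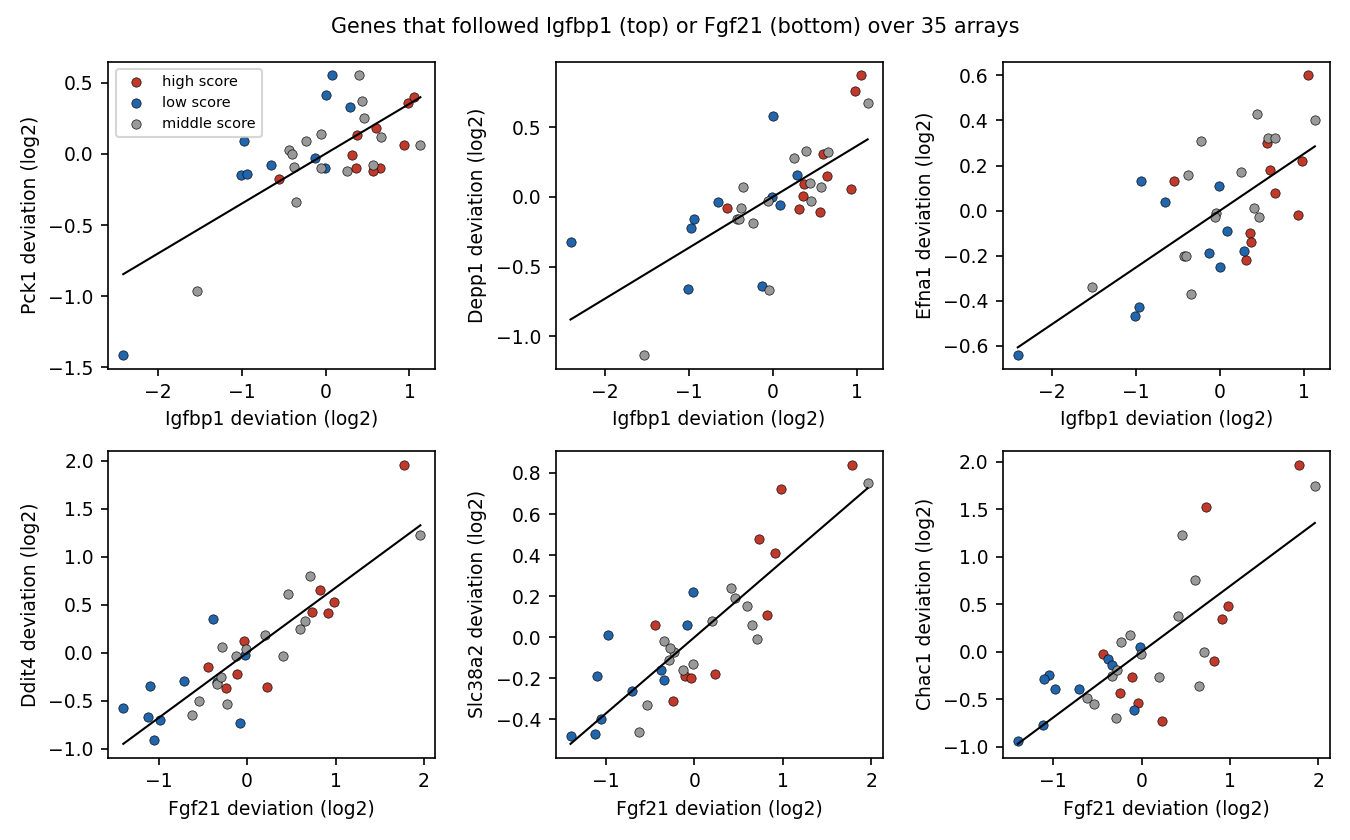
Each point is 1 of 35 arrays, with the log2 deviation of Igfbp1 (top) or Fgf21 (bottom) from the dose group mean on the horizontal axis, that of the named gene on the vertical axis, and the fitted slope as a line. Pck1 falls furthest in the arrays with Igfbp1 at -2.41 and -1.53. Ddit4 and Slc38a2 have positive fitted slopes on Fgf21, and whether the slope holds along its whole range was not tested.

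When the other gene was added to the model, all 17 probe sets called on *Igfbp1* and all 77 called on *Fgf21* kept their sign. Of these, 16 and 57 were still called by limma with Benjamini-Hochberg adjustment, and 1 and 20 were not, among them *Pptc7* and *Atf3*. With both genes in the fit, *Pck1* had a slope on *Igfbp1* of 0.33 (limma, Benjamini-Hochberg adjusted p = 0.0355) and *Ddit4* a slope on *Fgf21* of 0.67 (adjusted p = 5.7e-07). In the fits on 1 gene alone, *Pck1* had -0.19 on *Fgf21* and *Ddit4* -0.15 on *Igfbp1*, neither called. Among genes called with a positive slope on *Fgf21*, 40 of 45 had a RefSeq promoter and 3 of these held TGATGCA, in *Chac1*, *Angptl8* and *Zfp764l1*. Of the genes called with a negative slope on *Fgf21*, 1 of 11 promoters held it, in *Gla*. CACGTG was held by 5 of the 40 promoters and by 1 of the 11. Among those called with a positive slope on *Igfbp1*, 3 of 5 had a promoter, of which *Efna1* held GTAAACA and none held CAAAACA.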

How the data were processed

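The authors' deposited values were log2 expression per probe set of single-colour 3′ arrays, made with RMA and the affy package per the submitters' processing notes (versions: not given in the sources used here). Base 2 was assumed because RMA usually reports it. RMA equalizes array distributions and compresses differences of dim probe sets, and precision is limited by how many arrays there are. Of 31099 probe sets 57 controls were left out. The remaining 31042 had 1 gene symbol (20826), several (436, unnamed) or none (9780) in the platform annotation, and each of 14217 genes was represented by its brightest probe set. *Igfbp1* and *Fgf21*, with 1 probe set each, were left out of the tests.

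Values were used without further normalization. limma 3.58.1 in R 4.3.3 fitted 6 dose groups and 3 score classes to 35 arrays, with Benjamini-Hochberg adjustment over 31040 probe sets and a threshold of 0.05. Correlations used 100000 permutations (scipy 1.17.1). The fits were checked on simulated data. The arrays, gene lists and tests were chosen with earlier results of these data known. Named genes were to be the 12 largest called differences in each direction and up to 4 called members of each list. With none called, they were the 5 with the smallest p in each direction and the 2 with the smallest p in each list, and genes on the slopes, as well as *Asns*, *Psat1*, *Phgdh*, *Pdk4*, *Irs2*, *Ppargc1a*, *Fasn*, *Acly*, *Klf15* and *Cyp7a1*, were picked after their values were seen. Nothing in the labels says whether sampling order or day differed between rats.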

Additional observations from a re-analysis of the deposited data

Results flagged for a closer look

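In 156 sets of 10 arrays (a gene or the score in the high or the low class) 11 had 1 array farther from the rest than Dixon's 95% limit for 10 samples. The score, *Igfbp1* and *Fgf21* set the classes, and other genes were picked by their p or called slope. The limit serves here only to point at single arrays, and the count is not set against a chance rate. All values are log2 deviations from the dose group mean. The 680 mg/kg array of replicate 2 was the lowest low array for *Igfbp1* (-2.41, next -1.01), *Pck1* (-1.41, next -0.15) and *Nr0b2* (-1.65, next -0.79). The 6.88 mg/kg array of replicate 4 was the lowest high array for *Igfbp1* (-0.55, next 0.31) and for the lymphocyte gene *Cd2* (-0.40, next -0.13), and the highest for *Ddit4* (1.96, next 0.65).

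The 0.07 mg/kg array of replicate 6 was the lowest low array for *Aldh1l1* (-0.17, next 0.08) and the highest for *Tagln* (0.88, next -0.02). Without it, limma called 1 probe set lower in the high arrays. The remaining values were *Cnmd* at 0.09 (next -0.06) in 6.88 mg/kg replicate 6, *Igfals* at -0.30 (next -0.02) in vehicle replicate 2, and the pancreatic gene *Ctrb1* at -0.22 (next -0.03) in 0.07 mg/kg replicate 4.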

How the results depend on the processing

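The high against low comparison called 0 probe sets in each direction under 21 of 22 alternative settings. Ranking by *Fgf21* alone called 19 higher and 9 lower (0.0612% and 0.029%), and ranking by *Igfbp1* alone 0. Leaving out 1 chosen array gave 0 to 0 higher and 0 to 1 lower.

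Some uncalled genes changed sign. Ranked by *Igfbp1* alone, the difference was 0.01 for *Tspan33*, -0.09 for *Aldh18a1*, -0.45 for *Ddit4*, 0.00 for *Tdo2*, -0.03 for *Rora*, 0.00 for *Klf6*, 0.06 for *Dhcr7*, 0.01 for *Tm7sf2*, -0.14 for *Ifit2*, -0.04 for *Tagln*, 0.01 for *Slc34a1* and -0.20 for *Fabp4*. Ranked by *Fgf21* alone it was -0.01 for *Fgfr4* and 0.03 for *Ahsp*, and without 680 mg/kg -0.01 for *Ppp1r15a*. The slope of *Zfp37* on *Igfbp1* was 0.01 in the 15 middle arrays. The correlation of *Igfbp1* and *Fgf21* was 0.001 without 68 mg/kg. The causes were not tested.

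On *Igfbp1*, called counts (positive and negative, main 6 and 11) were 14 and 34 without dim probe sets, 2 and 4 unmoderated, 0 and 0 without 68 mg/kg, 1 and 0 without 680 mg/kg, and 0 and 0 in the 20 chosen or the 15 middle arrays, which are fewer samples. The negative count alone moved to 4 after repeated quantile normalization, 23 with an intensity trend, 45 without 0.07 mg/kg and 5 without vehicle. Leaving out 1 array gave 0 to 22 positive and 0 to 113 negative.

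On *Fgf21* (59 and 18) counts were 89 and 33 without dim probe sets, 92 and 39 with array weights, 25 and 6 without 0.69 mg/kg, 11 and 7 without 6.88 mg/kg, 17 and 2 without 68 mg/kg, 36 and 6 without 680 mg/kg, 3 and 0 in the 20 chosen and 1 and 0 in the 15 middle arrays. Leaving out 1 array gave 13 to 115 positive and 4 to 34 negative.

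The labels do not say whether a replicate number pairs rats across dose groups. Deviations of 85 same-numbered pairs correlated at a median of -0.02, with 8 over 0.1. For 425 pairs with different numbers the median was 0, with 66 over 0.1. Such medians cannot decide whether same-numbered rats shared a day or a cage. With the number as a replicate block, 0 probe sets were called for high against low, 1 and 1 on *Igfbp1*, and 34 positive on *Fgf21*.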
